A study of Mus musculus with 6 samples.

Results

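The genes described here are 10 heat shock genes of the cytosol and the mitochondria, taken by name from a table of 55487 genes. They are the heat shock transcription factor Hsf1, the HSP70 genes Hspa1a, Hspa1b and Hspa8, the cochaperone genes Dnajb1 and Hsph1, the HSP90 genes Hsp90aa1 and Hsp90ab1, and the mitochondrial chaperonin genes Hspd1 and Hspe1. All 10 were found in the table. Their polyadenylated RNA was measured in bulk in megakaryocyte-erythroid progenitors, the marrow precursors of erythrocytes and platelets. The donors were 8-week-old C57BL/6 mice of wild type genotype, and their marrow was sorted, giving 3 control libraries and 3 libraries after a fast of 6 h. The question was how a short fast acts on red cell production. Values of a group are listed in the order of its libraries 1, 2 and 3. The extraction text describes ground tissue, although the samples are labelled as sorted cells. The labels do not say whether a library is 1 animal or a pool, so p-values measure only the spread between these libraries.

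Heat shock proteins are chaperones, which hold unfolded or partly folded proteins and release them to fold. In unstressed cells HSF1 is kept inactive by binding to chaperones. When unfolded proteins draw those chaperones away, HSF1 forms trimers, binds heat shock elements in DNA and raises transcription of the inducible genes. Red cell precursors depend on HSP70, which is known to protect the transcription factor GATA1 from cleavage during their maturation.

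Heat shock elements are arrays of the 3-letter unit GAA and its reverse complement TTC in alternating orientation. The promoters of the inducible HSP70 genes and of Hspe1 show how differently such letters are arranged. RefSeq (GRCm38.p6) gave a promoter window for 6 of the 10 genes, with 250 bases before and 50 bases after the start of transcription. The stretches below are printed 5′ to 3′ on the strand of the gene, with the heat shock letters in capitals. The Hspa1a stretch is chr17:34972157-34972306 on the minus strand and the Hspa1b stretch is chr17:34959239-34959388 on the minus strand. The Hspe1 stretch, chr1:55087982-55088131 on the plus strand, leaves out the 16 bases between its end and the RefSeq start.
Hspa1a: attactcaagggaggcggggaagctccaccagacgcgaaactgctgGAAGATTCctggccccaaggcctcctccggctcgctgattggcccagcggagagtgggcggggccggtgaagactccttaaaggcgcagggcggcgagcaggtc
Hspa1b: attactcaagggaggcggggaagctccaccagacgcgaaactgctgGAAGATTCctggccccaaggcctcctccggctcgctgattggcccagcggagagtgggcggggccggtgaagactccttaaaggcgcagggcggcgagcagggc
Hspe1: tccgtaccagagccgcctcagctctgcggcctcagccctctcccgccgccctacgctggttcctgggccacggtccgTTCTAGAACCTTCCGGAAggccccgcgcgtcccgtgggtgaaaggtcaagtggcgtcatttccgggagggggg

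The letters of 2 adjacent units, GAANNTTC or TTCNNGAA, were searched on both strands and occurred in 15.1% of all 32851 promoter windows of 300 bases. The letters of 3 adjacent units, GAANNTTCNNGAA or TTCNNGAANNTTC, contain the former and occurred in 0.603% of the windows. Hspa1a and Hspa1b held the same 2-unit match, GAAGATTC, from 104 to 97 bases before the start, and no 3-unit match. Their windows differed at 4 of 300 bases, and at 1 of the 150 bases printed. In the Hspe1 window a run of 18 bases at chr1:55088059-55088076 held 2 overlapping 3-unit matches, TTCTAGAACCTTC and GAACCTTCCGGAA. Hspd1 and Hspe1 lie head to head on chromosome 1, and the same run lies 127 to 144 bases before the inner of the 2 Hspd1 starts in RefSeq, at position 55087932. It lies downstream of the outer Hspd1 start, at position 55088243, and the window of that start held neither form. The Hsph1 window held a 3-unit match 37 to 49 bases after its start, and the Dnajb1 window beginning farthest upstream held neither form. Only exact letters were searched, so arrays holding a unit with a changed letter were not counted. A match describes letters in this window and is not a measured binding site.

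Levels are given as CPM, counts relative to the size of the library. They were scaled between libraries on 10641 genes whose mean count stood clear of a background of stray reads. Of the 10 heat shock genes 9 were among them. This background was measured in 1466 odorant and vomeronasal receptor genes of the nose. They received 8.99 raw counts per kilobase in control library 1 and 13.1 to 16.01 in the other 5 libraries. Applied to the exonic length of all genes, that rate made up 3.90, 6.55 and 8.59% of gene counts in the controls. After the fast it made up 14.6, 11.5 and 13.1%, so every fasted library lay above every control. Gene counts totalled 22445970 to 30246110 in the control libraries and 12797144 to 18225191 in the fasted libraries. Control library 1 was the deepest. A chi-square comparison of its counts with each other library gave 117 to 186 per degree of freedom, against 22.4 to 115 among the other 5, a measure that grows with depth. Correlations of log2 CPM overlapped, at 0.959 to 0.9745 with the other libraries and 0.961 to 0.987 among them. Control library 1 had 0.9745 with control library 2 and at most 0.964 with the rest. Among the others the lowest was control library 3 with fasted library 3, and the next was 0.973. Erythroid markers were present, with 238 to 697 CPM of Klf1, the gene of an erythroid transcription factor. So were 6 granulocyte-monocyte markers, whose summed level was 3353, 10782 and 16885 CPM in the controls and 3734, 2143 and 808 CPM after the fast. All 6 of those markers had negative log2 fold changes, with a median of -2.23, and 0 passed edgeR's adjusted test although all 6 had an unadjusted p under 0.05. In sorted cells measured in bulk, fewer cells of a type and less RNA per cell cannot be told apart. None of 5 macrophage markers stood at 5 times the background.

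No heat shock gene passed the test between fasted and control libraries. Their counts together made up 1.21% ± 0.185 (SD, n = 3) of the counts of the 10641 genes in control libraries and 1.17% ± 0.0289 (SD, n = 3) in fasted libraries. In edgeR's quasi-likelihood test with Benjamini-Hochberg adjustment, 0 of the 9 genes tested passed an adjusted p of 0.05, where 0% of all 10641 genes tested passed. Without adjustment, 0 of the 9 had a p under 0.05, against 19.8% of all genes tested. DESeq2 also passed 0 of the 9, although it passed 503 of all genes. Over the 9 genes the median log2 fold change stood at -0.20, against 0.02 over all genes tested, and 7 of the 9 values were below 0 (47.7% of all genes). Without control library 1 the median of the 9 was 0.04, against 0.03 over all genes, and 4 of the 9 were below 0. Those 4 were Hsp90aa1, Hsp90ab1, Hspd1 and Hspe1, at -0.14, -0.17, -0.23 and -0.22. Hsf1, Hspa8 and Hsph1 changed to positive values, so the median and the count below 0 depended on that library. The groups did not overlap for Hsp90aa1, Hsp90ab1 and Hspe1, all 3 lower in fasted libraries, where 27.3% of all genes did not overlap in either direction and 12.9% were lower.

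**Figure D1:**
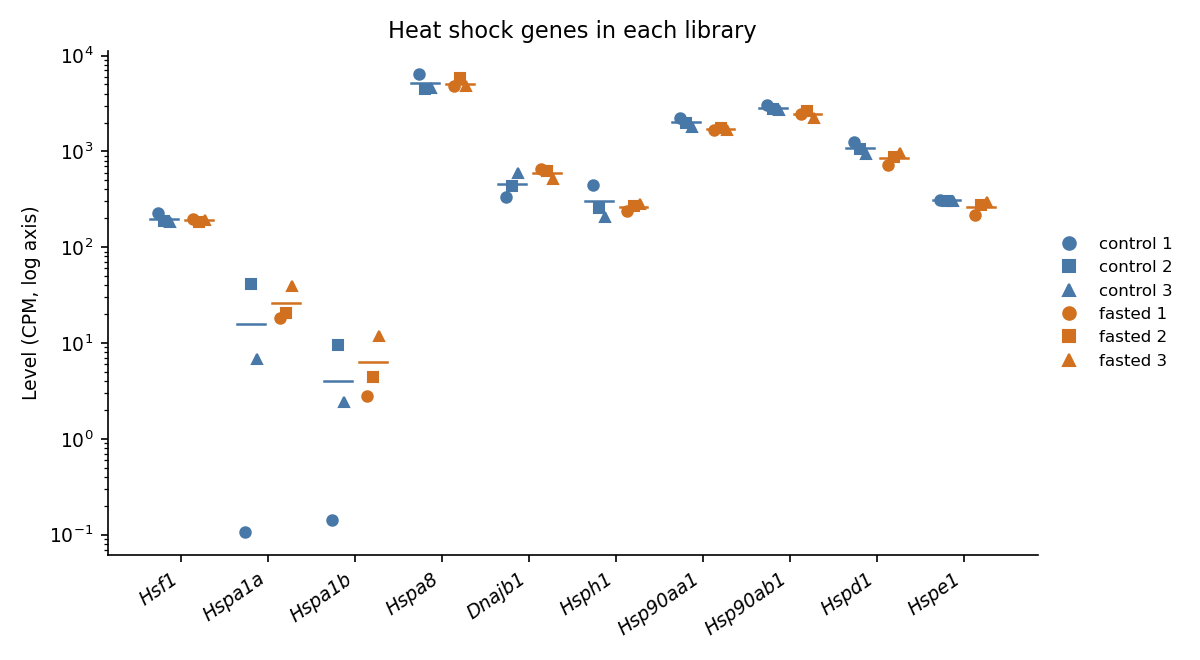
CPM of each heat shock gene in the 6 libraries on a log axis, with a bar at each group's mean. Hspa1a and Hspa1b range over more than a decade, with control library 1 at 0.107 and 0.143 CPM, while for each of the other 8 genes the highest library is at most 2.18 times the lowest.

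Per kilobase of exon the constitutive genes led, and the inducible HSP70 genes came last. The mean over the 6 libraries was 1196 CPM per kilobase for Hspa8, 877 for Hsp90ab1, 471 for Hsp90aa1, 367 for Hspd1, 193 for Hspe1, 164 for Dnajb1, 39.0 for Hsph1, 27.4 for Hsf1, 7.07 for Hspa1a and 1.85 for Hspa1b. Neighbours in this order whose ranges over libraries overlapped were Hsp90aa1 and Hspd1, Hspe1 and Dnajb1, Hsph1 and Hsf1, and Hspa1a and Hspa1b. Hspe1 exceeded Dnajb1 in 4 of the 6 libraries. The deposited lengths merge all exons of a gene. On the length of the longest coding transcript Hsf1 (92.3 CPM per kilobase) ranked above Hsph1 (74.6), and the other places were the same.

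Hsf1 (ENSMUSG00000022556.11, chromosome 15, 76477422 to 76501913, plus strand), the gene of the factor itself, varied least of the 10 over the 6 libraries, the highest level being 1.24 times the lowest. It had 226, 187 and 183 CPM in the controls and 194, 183 and 192 CPM after the fast. The groups overlapped, and control library 1 was the highest of all 6. Fasted over control, the log2 fold change came to -0.07 (SE 0.12, edgeR adjusted p 0.791), with a 95% interval of -0.35 to 0.22, and without control library 1 it was 0.04. HSF1 is controlled mainly as a protein, so its RNA level does not report its activity. Of 5 other genes of heat shock factors and their partners, 2 were tested and neither passed. Hsbp1, which encodes a small protein that binds HSF1, had the smaller p of these, with a log2 fold change of -0.28 (SE 0.13, edgeR adjusted p 0.259).

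Hspa1a (ENSMUSG00000091971.3, chromosome 17, 34969190 to 34972156, minus strand) and Hspa1b (ENSMUSG00000090877.3, chromosome 17, 34956436 to 34959238, minus strand) encode the stress-inducible cytosolic HSP70. They varied more between libraries of 1 group than between the groups. The counts of Hspa1a were 3, 967 and 136 in the controls against 210, 319 and 521 after the fast. As levels these were 0.107, 41.0 and 6.87 CPM against 18.2, 20.3 and 39.3 CPM. The lowest and the highest library were thus both controls, and the fasted libraries lay between them. The means were 15.98 CPM ± 21.9 in control and 26.0 CPM ± 11.6 in fasted libraries (SD, n = 3 each). For Hspa1a the fold change on the log2 scale came to 0.70 (SE 1.46, edgeR adjusted p 0.816), and its 95% interval of -2.99 to 4.39 spans a fall to 0.126 times and a rise to 20.95 times. It moved to 0.11 without control library 1 and to 2.89 without control library 2 (edgeR adjusted p 0.961 and 0.383), so single control libraries set its size.

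Hspa1b followed its neighbour, its counts being 4, 226 and 48 in the controls against 32, 69 and 156 after the fast. Control library 2 and fasted library 3 were highest for both genes, and control library 1 was lowest for both. At 2.33 times the background on average, Hspa1b fell short of the 5 times asked for, so it has no value in the main comparison. Hspa1a stood at 8.88 times on average, but not in every library. By library it stood at 0.112, 24.8 and 3.12 times in the controls and 4.97, 6.72 and 11.9 times after the fast. Among all 36508 genes that passed the expression filter, Hspa1b had a log2 fold change of 0.15 (SE 1.34, edgeR adjusted p 0.952). Leaving out single libraries changed its sign in 3 cases, to -0.42 for control library 1, -0.15 for control library 3 and -0.56 for fasted library 3.

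Both genes had fewer counts in control library 1 than the background there gives for their lengths. The 3 counts of Hspa1a (95% exact Poisson interval 0.619 to 8.77, counting error only) stood against 26.7 from background, and the 4 counts of Hspa1b (1.09 to 10.2) stood against 25.2. The pair is nearly identical in its coding part. Of all stretches of 100 bases in the Hspa1a transcript 56.5% also occur in a transcript of another gene, and for Hspa1b this share was 49.9%, all of it with Hspa1a. How reads that match several places were counted is not given in the sources used here, so counts of the pair and their split are uncertain. Hspa1a also shares 564 of its 2967 exonic bases with Gm20481, a gene model on the other strand. Summed into 1 gene, the pair had a log2 fold change of 0.69 (SE 1.42, edgeR adjusted p 0.813).

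Hspa8 (ENSMUSG00000015656.17, chromosome 9, 40800984 to 40810087, plus strand) encodes the constitutive HSP70 that folds new proteins and uncoats clathrin vesicles. Its level was 6467, 4525 and 4569 CPM in the controls and 4781, 5764 and 4753 CPM after the fast. Control library 1 was highest, and the groups overlapped. Hspa8 had a log2 fold change of -0.02 (SE 0.18, edgeR adjusted p 0.953), with a 95% interval of -0.42 to 0.37. Without control library 1 it was 0.17, and the 3 fasted libraries then lay above both remaining controls. Groups separate more easily with fewer libraries. Of all genes 18.1% were lower without overlap once that library was left out, against 12.9% with it, and the share that were higher is not given here. Of the 100-base stretches of its transcript 63.4% also occur in transcripts of other genes, most of them in Gm26825, a long noncoding RNA gene, and 3 small nucleolar RNA genes lie inside it.

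Within each library the ratio of inducible to constitutive HSP70 does not depend on the scaling between libraries. The log2 ratio of Hspa1a plus Hspa1b counts to Hspa8 counts was -14.56, -6.48 and -8.94 in the controls and -7.83, -7.86 and -6.54 after the fast. Control library 2 lay above every fasted library and the other controls lay below them. The difference of means was 2.58 with a two-sided exact permutation p of 0.5 (n = 3 each). Without control library 1 it was 0.30, and without control library 2 it was 4.34. With the background subtracted from the counts it was 3.85, so its size depended on the background. Of the 4 within-library ratios compared, none reached the smallest p that 3 against 3 libraries allow, 0.1, and the lowest Benjamini-Hochberg value over the 4 was 0.8.

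**Figure D2:**
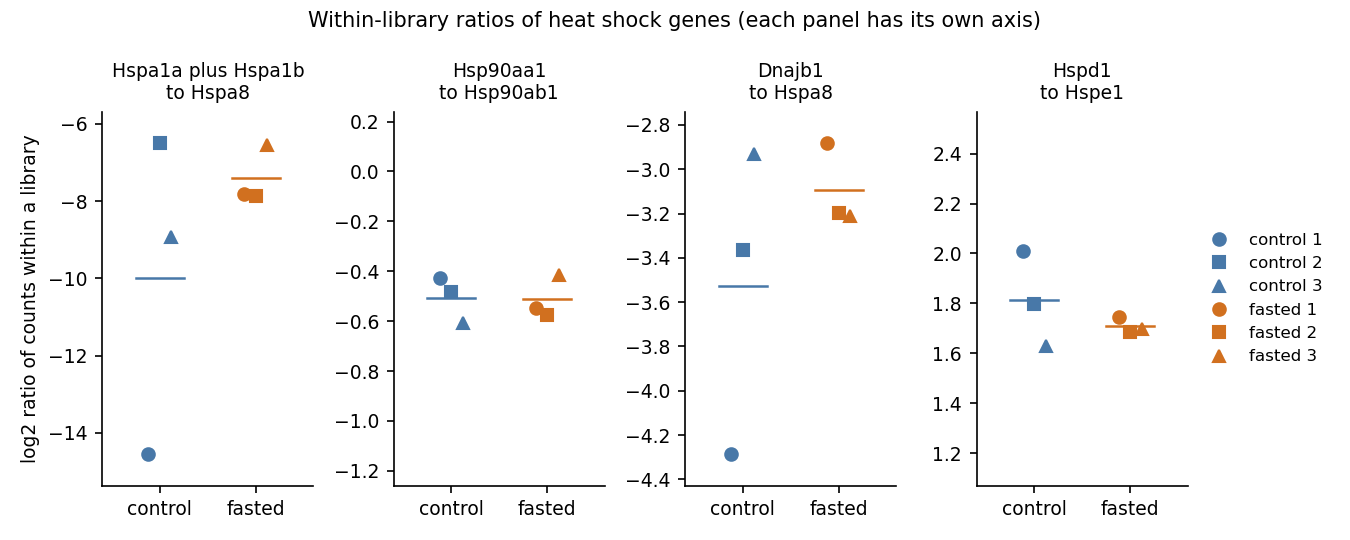
Log2 ratios of counts within each library, 1 panel per ratio with its own axis, with a bar at each group's mean. The groups overlap in all 4 panels, and control library 1 is the lowest point for both ratios to Hspa8 and the highest for Hspd1 to Hspe1.

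The cochaperones of HSP70 stood at opposite ends in control library 1. Dnajb1 (ENSMUSG00000005483.10, chromosome 8, 83608193 to 83612653, plus strand) encodes a heat-inducible J-domain protein that delivers substrates to HSP70 and helps to keep HSF1 in check. It had 331, 439 and 600 CPM in the controls and 649, 629 and 514 CPM after the fast. Control library 1 was lowest, and only control library 3 reached the fasted range. The log2 fold change of 0.39 (SE 0.21, edgeR adjusted p 0.331) was the largest positive value after Hspa1a, with a 95% interval of -0.08 to 0.86. Dnajb1 moved to 0.20 without control library 1 and to 0.61 without control library 3 (edgeR adjusted p 0.567 and 0.163). Relative to Hspa8 in the same library the log2 ratio was -3.53 ± 0.694 in control and -3.10 ± 0.187 in fasted libraries (SD, n = 3 each, exact permutation p = 0.4). The difference of 0.43 became 0.05 without control library 1 and 0.73 without control library 3.

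Hsph1 (ENSMUSG00000029657.15, chromosome 5, 149614287 to 149636376, minus strand) encodes HSP110, a nucleotide exchange factor that resets HSP70 for its next substrate. Its level was 450, 253 and 206 CPM in the controls and 238, 269 and 285 CPM after the fast. Control library 1 was far above the rest, and the other 2 controls spanned the lowest fasted library. This amounts to a log2 fold change of -0.20 (SE 0.27, edgeR adjusted p 0.698), and it changed sign to 0.20 (edgeR adjusted p 0.499) without control library 1. Control library 1 thus held the highest level of 7 of the 10 genes, and the lowest of Hspa1a, Hspa1b and Dnajb1.

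Of 20 other HSP70 cochaperones and relatives, 17 were tested and 0 passed, with 12 below 0 and a median log2 fold change of -0.10. Their smallest p values belonged to Stub1, a ubiquitin ligase that marks chaperone clients for destruction (-0.46, SE 0.15, edgeR adjusted p 0.167), and to St13, an HSP70-binding cochaperone (-0.36, SE 0.14, edgeR adjusted p 0.219). Without adjustment 3 of the 17 had a p under 0.05 and were lower, where 8.30% of all genes were. The count was 1 lower and 1 higher without control library 1.

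The HSP90 genes were among the lower values in fasted libraries, by amounts that did not pass the test. Hsp90aa1 (ENSMUSG00000021270.13, chromosome 12, 110690605 to 110702728, minus strand) encodes the inducible cytosolic HSP90, which matures kinases and steroid receptors. It had 2250, 1964 and 1787 CPM in the controls and 1661, 1754 and 1689 CPM after the fast. Every fasted library lay below every control, by a narrow margin between control library 3 and fasted library 2. Its change on the log2 scale was -0.23 (SE 0.13, edgeR adjusted p 0.346), with a 95% interval of -0.53 to 0.06, and it was -0.14 without control library 1.

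Hsp90ab1 (ENSMUSG00000023944.14, chromosome 17, 45567775 to 45573271, minus strand) encodes the constitutive form. Its level was 3021, 2749 and 2719 CPM in the controls and 2426, 2614 and 2250 CPM after the fast. Here too the groups did not overlap. On the log2 scale the difference was -0.22 (SE 0.13, edgeR adjusted p 0.360), with a 95% interval of -0.51 to 0.07.

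The balance of the HSP90 forms was steady. Per kilobase Hsp90ab1 stood at 1.86 ± 0.120 times Hsp90aa1 in control and 1.87 ± 0.110 times in fasted libraries (SD, n = 3 each). The log2 count ratio of Hsp90aa1 to Hsp90ab1 differed by -0.01 between the groups (exact permutation p = 1, n = 3 each), a difference whose sign changed when single libraries were left out. The absence of overlap moved with the scaling. Of the 3 genes lower without overlap, Hsp90ab1 was the only one left when library totals were used, and the HSP90 pair when upper-quartile factors were. With RLE factors Hspd1 joined the 3. Of the 100-base stretches of Hsp90aa1 47.6% occur in transcripts of other genes, and of those of Hsp90ab1 0%. Of 12 HSP90 cochaperone genes 10 were tested and 0 passed, with 7 below 0 and a median of -0.13. Without adjustment 2 were lower and 1 was higher at a p under 0.05. The median was -0.09 and 5 of the 10 were below 0 without control library 1, with 1 such p in each direction. Tsc1, a tumour suppressor that binds HSP90, had the smallest p (0.49, SE 0.15, edgeR adjusted p 0.153). Nudc and Ptges3, the latter encoding the cochaperone p23, had -0.40 (SE 0.12) and -0.36 (SE 0.13), with edgeR adjusted p of 0.158 and 0.1999.

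Hspd1 (ENSMUSG00000025980.14, chromosome 1, 55077835 to 55088243, minus strand) and Hspe1 (ENSMUSG00000073676.4, chromosome 1, 55088132 to 55091307, plus strand) encode HSP60 and HSP10, the barrel and the lid of the chaperonin in the mitochondrial matrix. Hspd1 had 1261, 1057 and 943 CPM in the controls and 723, 879 and 958 CPM after the fast. Fasted library 1 was lowest, and fasted library 3 lay just above control library 3. Its log2 fold change of -0.35 (SE 0.16, edgeR adjusted p 0.260) was the most negative of the 9, with a 95% interval of -0.70 to 0.01, and it was -0.23 without control library 1.

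Hspe1 had 313, 304 and 305 CPM in the controls and 215, 273 and 296 CPM after the fast. The controls lay within 10 CPM of each other, above every fasted library, and fasted library 1 was again the lowest. Its log2 difference was -0.23 (SE 0.14, edgeR adjusted p 0.363), with a 95% interval of -0.54 to 0.08, and it was -0.11 without fasted library 1. Per kilobase of exon Hspd1 stood at 1.73 to 2.25 times Hspe1 over the 6 libraries, highest in control library 1. The log2 count ratio of the pair was 1.81 ± 0.191 in control and 1.71 ± 0.0318 in fasted libraries (SD, n = 3 each, exact permutation p = 0.6). The difference of -0.10 became -0.0024 without control library 1 and -0.19 without control library 3. They share 112 exonic bases on opposite strands, and 26.9% of the 100-base stretches of Hspd1 and 22.4% of those of Hspe1 occur in transcripts of other genes. For Hspd1 most of these lie in the processed pseudogene Hspd1-ps3, which itself held 382 to 1389 raw counts a library.

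Of 14 other mitochondrial chaperones and proteases all were tested and 0 passed, with 10 below 0, a median log2 fold change of -0.16 and 1 unadjusted p under 0.05. Yme1l1, a protease of the inner membrane, and Trap1, the mitochondrial HSP90, had the smallest p values, at -0.47 (SE 0.15, edgeR adjusted p 0.163) and -0.27 (SE 0.12, edgeR adjusted p 0.258). The 14 genes of the cytosolic chaperonin and prefoldin, which fold actin and tubulin, had 13 values below 0 and a median of -0.19. Of all genes tested 47.7% were below 0. In this list 0 passed, with 1 unadjusted p under 0.05. Without control library 1 all 14 were below 0, with a median of -0.17. Of the 14 mitochondrial genes 9 were then below 0, with a median of -0.11. Tcp1, a subunit of that chaperonin, had -0.33 (SE 0.13, edgeR adjusted p 0.217).

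Scaling on all 36508 genes that passed the expression filter, most of them near the background, moved every heat shock gene down together. In that fit the log2 fold changes were -0.60 for Hsf1, -0.56 for Hspa8, -0.77 for Hsph1, -0.77 for Hsp90aa1, -0.74 for Hsp90ab1, -0.89 for Hspd1 and -0.76 for Hspe1. Dnajb1 changed sign to -0.09, and Hspa1a kept a positive value of 0.21. The median of the 10641 genes moved by a like amount, from 0.02 to -0.50. Hspd1 alone of the 10 passed there (SE 0.24, edgeR adjusted p 0.0435), where 4.97% of all genes tested passed, 3.82% as lower and 1.15% as higher. Among the 10641 genes 12.9% passed there as lower. Without overlap, 5 of the 10 were lower in that fit, Hsf1 and Hspd1 joining the 3 above, where 34.9% of all genes did not overlap and 15.1% were lower. The ratios within libraries do not depend on this choice.

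**Figure D3:**
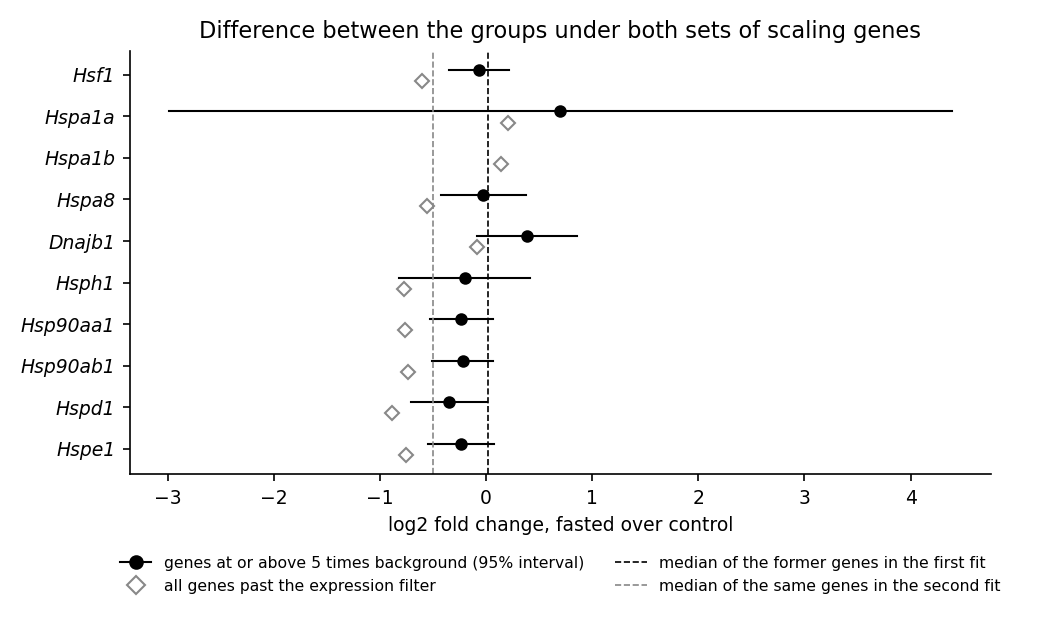
Log2 fold change of each gene, fasted over control, with 95% intervals in the fit of genes at or above 5 times the background (black circles) and without intervals in the fit of all 36508 genes (open diamonds). Dashed lines mark the median of the same 10641 genes in each fit, at 0.02 and -0.50, and the diamonds of all 9 genes lie to the lower side of their circles.

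Other heat-inducible targets of HSF1 gave no common direction. Of 15 such genes 11 were tested and 0 passed, with 6 below 0, 5 above, a median of -0.20 and 2 unadjusted p values under 0.05, both lower. The 3 smallest p values belonged to genes of HSP90 cochaperones and a calcyclin-binding protein, Fkbp4 (-0.48, SE 0.15, edgeR adjusted p 0.161), Stip1 (-0.39, SE 0.17, edgeR adjusted p 0.251) and Cacybp (-0.34, SE 0.15, edgeR adjusted p 0.253). The small heat shock protein genes Hspb1, Hspb8 and Cryab, strongly induced by heat in many cell types, were not tested because they stood at 2.91, 0.395 and 1.47 times the background. Without control library 1 the median of the 11 genes was -0.01, with 1 unadjusted p under 0.05 in each direction.

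The chaperones of the endoplasmic reticulum, which answer to other regulators, were set beside these. All 12 had negative values, with a median of -0.53, and 0 passed after adjustment. Without adjustment 9 of the 12 had a p under 0.05 and were lower, against 8.30% of all genes, and 8 of 12 without control library 1. Sdf2l1, an HSP70 partner of that compartment, and Pdia4, a disulfide isomerase, had -1.27 (SE 0.19) and -0.89 (SE 0.15), both with an edgeR adjusted p of 0.131. Their sum was 7018, 7548 and 9587 CPM in the controls and 5989, 6484 and 4874 CPM after the fast. It was highest in control library 3 and lowest in fasted library 3, as was the sum of the granulocyte-monocyte markers (16885 and 808 CPM), whose part in these values was not tested. The difference between these chaperones and those of the cytosol was not tested either.

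Immediate early genes, which rise within minutes of stimulation or cell dissociation, also had their lowest sum in control library 1. The summed level of 18 such genes was 3145, 10235 and 10011 CPM in the controls and 13650, 13507 and 12119 CPM after the fast. Atf3, for example, had 1.89 CPM in control library 1 and 111 to 284 CPM in the other 5. All 18 had positive log2 fold changes, with a median of 0.82, and 0 passed, with 2 unadjusted p values under 0.05 (11.5% of all genes were higher at that threshold). Jun had the smallest p (0.52, SE 0.20, edgeR adjusted p 0.203). Without control library 1 the median was 0.39, 16 of 18 were above 0, and 7 of 18 were higher at an unadjusted p under 0.05, against 10.2% of all genes. The order of libraries differed from that of Hspa1a: control library 2, the highest for Hspa1a, had a lower immediate early sum than every fasted library. The part of these genes in the spread of Hspa1a was not tested.

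**Figure D4:**
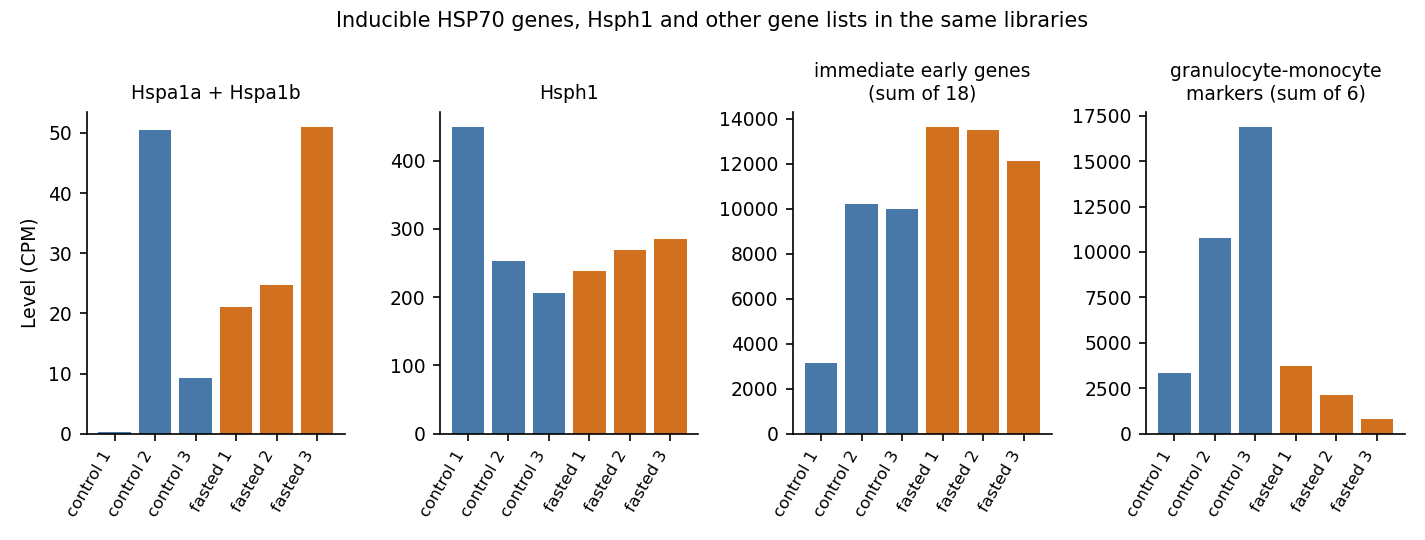
CPM in each library (bars from 0) of Hspa1a plus Hspa1b, of Hsph1, of 18 immediate early genes summed and of 6 granulocyte-monocyte markers summed. Control library 1 is lowest for the HSP70 pair and for the immediate early sum and highest for Hsph1, while control libraries 2 and 3 lead the granulocyte-monocyte sum.

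The granulocyte-monocyte sum given above took yet another order, highest in control library 3, and its part in the values of the heat shock genes was not tested. Mature neutrophil markers summed to 258 CPM in control library 1 and 767 to 2103 CPM in the other 5. Megakaryocyte markers summed to 422 to 544 CPM in control and 250 to 404 CPM in fasted libraries. Erythroid markers summed to 1904 to 3640 CPM in control and 2983 to 4585 CPM in fasted libraries, and lymphocyte markers to 56.0 to 95.3 and 88.1 to 172 CPM.

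Genes whose log2 CPM over the 6 libraries was most like that of summed Hspa1a and Hspa1b were sought among the 10641. The 5 with the highest Pearson correlation were Gm12460, Rpl36a-ps2, AC102106.1, Rps13-ps1 and Sart3, with r from 0.990 to 0.994 over 6 libraries. All 5 were lowest in control library 1. These were chosen as the most alike of 10641 genes and are given as a description. Their ranges were narrow beside that of the HSP70 pair: Sart3 went from 86.2 to 117 CPM and Rpl36a-ps2, a ribosomal protein pseudogene, from 12.7 to 27.8 CPM.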

How the data were processed

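The authors deposited raw counts per gene for 6 libraries with each gene's exonic length. HISAT2 2.2.1, featureCounts 2.0.1 and GRCm38 are named in the submitters' processing notes; strand and multi-mapping settings are not given in the sources used here. Of 55487 gene identifiers 54435 matched GENCODE M21 with the same length. Symbols and positions came from GENCODE M21 for 55227 identifiers, the rest of these matched without their version number.

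Background was the summed counts over the summed length of receptor genes. Genes passing filterByExpr (36508) whose mean count reached 5 times background (10641) were scaled by TMM and tested with edgeR 4.0.16 (R 4.3.3; robust quasi-likelihood, group as the only term, threshold 0.05). The SE is the log2 fold change over the square root of F. Ratios within libraries had 0.5 added to each count and exact permutation tests. DESeq2 1.42.0 and limma 3.58.1 were alternatives. The edgeR, DESeq2 and limma-voom fits were tested on simulated counts with 200 genes changed 4-fold. That simulation used filterByExpr alone, the same dispersion for every gene and no difference in background between libraries. It therefore did not test the main gene set. The permutation tests were not tested on simulated data.

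The 10 genes, the lists and the use of background were chosen with earlier results of these data known. Named list genes are those with the smallest p, at most 3 a list; Atf3, Klf1, Hspb1, Hspb8 and Cryab were named outside this rule, after their values were seen. Total counts ranged from 12797144 to 30246110. Lists: other heat shock factors, HSF1 targets, HSP70 and HSP90 cochaperones, mitochondrial chaperones, cytosolic chaperonin, endoplasmic reticulum chaperones, immediate early genes and 6 sets of cell type markers.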

Additional observations from a re-analysis of the deposited data

How the results depend on the processing

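With all genes that pass filterByExpr, a mean of at least 10 counts or no filter, 1813 of 36508, 1938 of 35693 and 2849 of 52922 genes passed in place of 0. Of the 10 heat shock genes 1, 1 and 4 did (genes called and members called, fasted against control). The median log2 fold change of the 10641 genes was -0.50, -0.49 and -0.54 there, so the expressed genes moved down as a body. With the first filter 12.9% of the 10641 genes passed as lower. These filters add genes near the background to the scaling. DESeq2 passed 503 genes and a threshold of 0.10 passed 2. Leaving out single libraries gave 0 to 3 genes. None of the heat shock genes passed under the other alternatives. The log2 fold change of Dnajb1 was -0.086, -0.077 and -0.12 under those 3 filters. That of Hsf1 was 0.016, 0.0012 and 0.0052 with genes at 10 times the background, library totals and upper-quartile factors, and -0.15 to 0.039 without single libraries. Hspa8 gave 0.055, 0.034 and 0.043 under the same 3, 0.059 with background subtracted, and -0.15 to 0.17 without single libraries. Without single libraries Hsph1 ranged from -0.44 to 0.20 (control library 1 left out) and Hspa1b, in the fit of all genes, from -0.56 to 1.92. The log2 ratio of Hsp90aa1 to Hsp90ab1 ranged from -0.057 to 0.033 in the same way. For these sign changes the cause was not tested. The count of heat shock genes lower without overlap was 1 with library totals, 2 with upper-quartile factors, 4 with RLE factors and 5 with all genes, against 3. Of all genes tested 12.9% were lower without overlap in the main fit and 15.1% with all genes. The shares under the other factors are not given here. By limma-voom Hspa1a had 3.08 (adjusted p 0.297), against 0.70. With the replicate block Hspa1a had 2.33 (edgeR adjusted p 0.648), and 0 genes and 0 heat shock genes passed. The difference of the HSP70 log2 ratio was 2.58, as without the block. Deviations from the group means correlated at r -0.17, 0.14 and -0.33 between same-numbered libraries. With 3 libraries a group these values cannot decide whether the numbers pair the libraries. Counts over the lists without control library 1 were an alternative chosen after seeing the data. The 3 and 4 counts of the inducible pair in control library 1, the deepest library, leave wide counting intervals.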
